A study of Mus musculus with 2 samples.

Results

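Mir218-1 and Mir218-2 are the mouse genes that give rise to the microRNA miR-218. They were followed here in embryonic neural tube, the tissue that forms the brain and spinal cord. The genes were picked by their Ensembl identifiers and make up 2 of the 1973 miRNA genes in the count tables. Both had at least 10 counts in each library, as had 363 genes in all.

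All samples form 1 group: neural tube dissected from healthy B6NCrl embryos aged 15.5 days, with males and females pooled and no treatment named in the labels. Library 1 came from 78 embryos and held 4228685 sense-strand counts in miRNA genes, and library 2 came from 62 embryos and held 6039889. The labels call the libraries biological replicates. With a single group, the data give the level of each copy, the ratio between the copies, and how far the pools differed.

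miR-218 is known for its strong enrichment in motor neurons of the spinal cord and hindbrain, where the Isl1-Lhx3 transcription factor complex that specifies motor neurons switches it on. Mice that lack both genes die around birth with failing neuromuscular junctions. Each gene sits inside a Slit gene, and Slit proteins are secreted guidance cues that repel growing axons through Robo receptors. A microRNA gene is transcribed as a hairpin, from which Dicer cuts a duplex of a 5p and a 3p strand. The seed, bases 2 to 8 of the mature strand, does most of the target pairing.

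Mir218-1 (ENSMUSG00000065603.1) lies on the plus strand of chromosome 5 at positions 48223942 to 48224051 of mm10, inside Slit2. Mir218-2 (ENSMUSG00000065583.1) lies on the plus strand of chromosome 11 at 35616816 to 35616925, inside Slit3. In GENCODE M21 the principal transcripts of both hosts have 36 exons, and in both the miRNA gene lies in intron 14, on the host's strand. That intron spans 4572 bases in Slit2 and 9571 bases in Slit3. Mir218-1 ends 601 bases before the next Slit2 exon, whereas Mir218-2 ends 5082 bases before the next Slit3 exon. Neither copy overlapped an exon of any annotated host transcript. Of the 23 Slit2 transcripts 7 span Mir218-1, and of the 4 Slit3 transcripts 1 spans Mir218-2. No other miRNA gene is annotated inside Slit2 or Slit3, and 0 are annotated inside Slit1, the third member of the family.

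**Figure D1:**
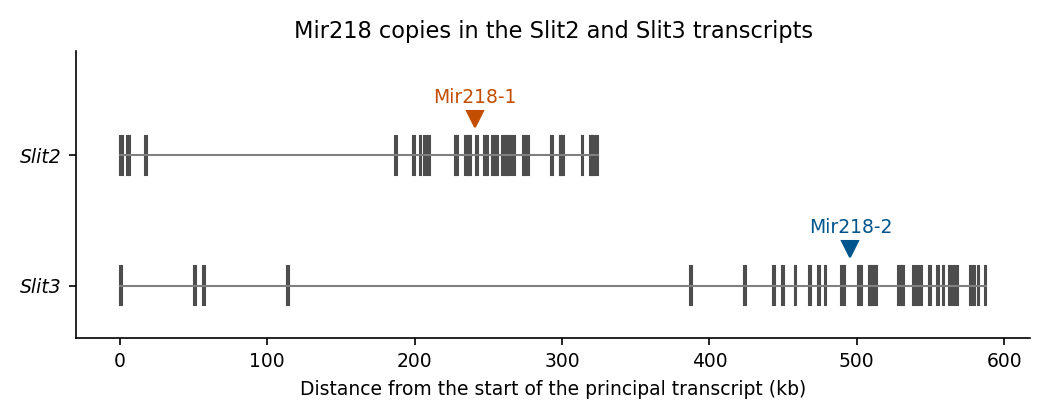
Exons of the principal Slit2 and Slit3 transcripts (dark boxes, widened where needed to be visible) against the distance from the transcript's start in kb, with a triangle at each Mir218 copy. Mir218-1 lies 241 kb into a 325 kb transcript and Mir218-2 lies 496 kb into a 587 kb transcript, both in intron 14.

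The hairpins, from RefSeq on build GRCm38.p6, are printed because their shared part decides which reads can be assigned to a copy. Capitals mark the longest stretch found in both hairpins.
Mir218-1: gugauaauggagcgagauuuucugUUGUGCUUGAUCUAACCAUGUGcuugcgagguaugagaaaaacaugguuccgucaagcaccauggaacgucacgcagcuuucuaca
Mir218-2: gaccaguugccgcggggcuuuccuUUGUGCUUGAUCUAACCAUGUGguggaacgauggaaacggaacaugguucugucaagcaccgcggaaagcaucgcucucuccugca

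Both hairpins are 110 bases long, and 76 of 113 columns of their alignment were identical (67.3%). The shared stretch of 22 bases holds the whole 5p strand of 21 bases and 1 base beyond its 3′ end. Mir218-2 has the higher GC content, with 54.5% against 45.5% in Mir218-1.

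The mature strands show the same division. Capitals mark the seed.
miR-218-5p, from both copies: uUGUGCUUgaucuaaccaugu
miR-218-1-3p: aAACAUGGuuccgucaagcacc
miR-218-2-3p: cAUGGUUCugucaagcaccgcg

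The 5p strand is the same from either gene, so its seed does not tell the copies apart. The annotated 3p strands are shifted by 3 bases against each other and carry different seeds. Over the 19 bases where they overlap they differ at 1 base. Against the Mir218-2 hairpin, miR-218-1-3p differs by A1G and C12U, with positions counted from 1 at its 5′ end and its own base first. Against the Mir218-1 hairpin, miR-218-2-3p differs by U9C, G20A and C21U, counted in the same way.

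Among 1738 mature strands in the RefSeq table, the 5p seed UGUGCUU was shared with 1 other, miR-7002-3p. The seed of miR-218-1-3p was shared with 1 other, miR-496b, and that of miR-218-2-3p with 0 others. Mir7002 and Mir496b had 0 counts in both libraries. A count of 0 allows up to 3 counts, or 0.709 CPM in library 1 and 0.497 CPM in library 2, where CPM is a gene's counts scaled to a common sense-strand total of miRNA genes.

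The tables leave reads that align to several places out of every gene. They formed 29.4% of all reads in library 1 and 29.7% in library 2. A read of 21 or 22 bases that starts at the annotated 5p start is identical in both genes. Such a read is in neither gene's count. Reads of 23 bases always differ somewhere, since 0 of 88 windows of that length in either hairpin occur in the other. Of the 89 windows of 22 bases in each hairpin, 1 occurs unchanged in the other hairpin, 3 differ from it at 1 base and 9 differ at 2 bases. Each 3p strand matched exactly only its own gene among 141767 annotated transcripts, and the 5p strand matched both Mir218 genes and no others. The counts below are therefore those of reads that could be placed on 1 copy. How they divide between 3p strands and longer or shifted 5p strands is not recorded in the tables, nor is the number of mismatches allowed in alignment.

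**Figure D2:**
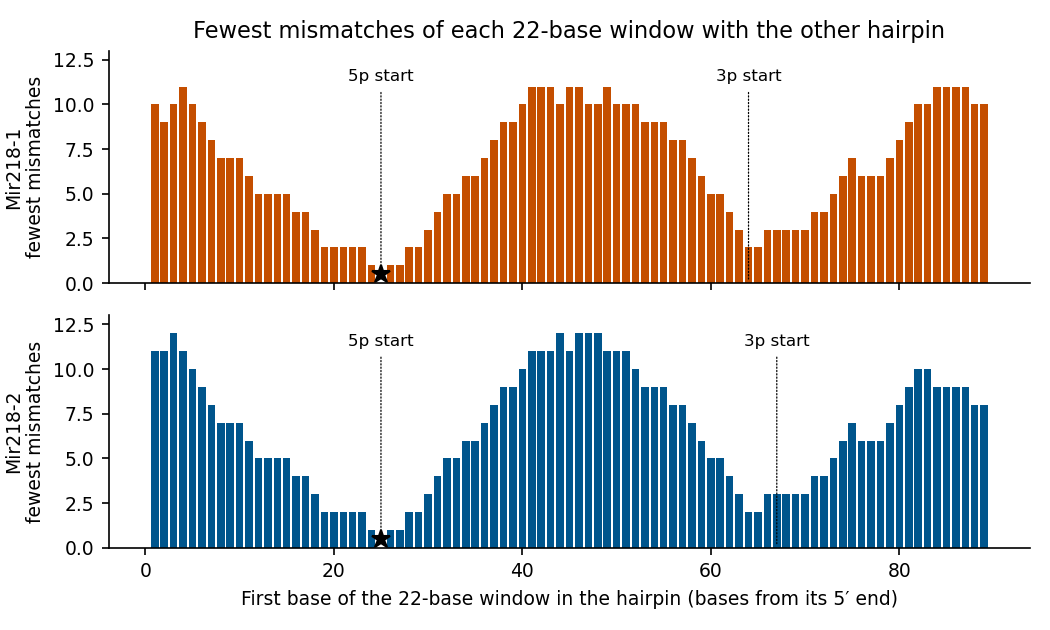
Fewest mismatches (y axis, bases) between each 22-base window of a hairpin, placed by its first base (x axis), and any window of the other hairpin. Dotted lines mark the annotated 5p and 3p starts, and the star marks the 1 window, at base 25, that both hairpins hold unchanged.

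Mir218-2, the copy in Slit3, gave most of the reads that could be placed on 1 copy. How the reads shared by both copies divide between them was not measured. It had 605 counts in library 1 and 907 counts in library 2, which is 143 CPM (95% exact Poisson interval 132 to 155) and 150 CPM (141 to 160.3). Its mean was 146.6 ± 5.02 CPM (SD, n = 2). Both libraries gave nearly the same level, and the intervals overlapped widely.

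Mir218-1, the copy in Slit2, had 120 counts in library 1 and 193 counts in library 2. These are 28.4 CPM (95% exact Poisson interval 23.5 to 33.9) and 32.0 CPM (27.6 to 36.8), with a mean of 30.2 ± 2.53 CPM (SD, n = 2). Every Mir218-2 value lay above every Mir218-1 value. Added together, the copies reached 177 ± 7.55 CPM (SD, n = 2), or 0.0177% of the counts. Both genes had 0 antisense counts in both libraries. Intervals and limits of detection cover counting error only and take each read as independent. PCR-amplified reads without molecular identifiers are not independent molecules, so the true error may be larger.

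Within library 1, Mir218-2 had 5.04 times the counts of Mir218-1 (95% exact interval 4.14 to 6.18, exact binomial test against equal counts, two-sided, p = 1.075e-78). In library 2 the factor was 4.70 (4.02 to 5.52, exact binomial test, p = 4.376e-111). Of the reads assigned to a copy in library 1, Mir218-2 held 83.4%, with a 95% Wilson interval of 80.6 to 86.0. In library 2 its part was 82.5%, with an interval of 80.1 to 84.6. The mean log2 ratio of the copies was 2.28 ± 0.07 (SD, n = 2), and Mir218-2 was higher in 2 of 2 libraries. The ratio in library 1 was 1.07 times that in library 2 (95% interval 0.830 to 1.39, Fisher's exact test, two-sided, p = 0.612). These tests compare the reads of the libraries and include no spread between embryos. Mature miRNA strands are of nearly equal length, so counts were compared without a length correction.

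Among the 363 genes detected in both libraries, Mir218-2 stood near the middle and Mir218-1 in the lower part. Mir218-2 ranked 178 by mean CPM and exceeded 51.0% of them, beside a median of 136 CPM over all detected genes. Mir218-1 ranked 261 and exceeded 28.1%. These ranks rest on reads placed on 1 copy and leave the shared 5p strand out. In a tissue sample, fewer cells of a type and less RNA per cell cannot be told apart.

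The other neuron-enriched miRNA genes mostly had higher CPM, but the Mir218 counts leave the strand shared by both copies out. By the RefSeq sequences, Mir137, Mir132, Mir153, Mir7b and Mir212 have no mature strand identical to that of another gene. Their counts leave no shared strand out and are not the same measure as those of Mir218. The level of miR-218 as a whole beside these genes was not measured. Of the 16 genes on the neuron-enriched list, 11 lay above Mir218-2 and 13 above Mir218-1. The most abundant were Mir137, a regulator of neuronal maturation, with 6917 ± 428 CPM, Mir128-1, which dampens neuronal excitability, with 1275 ± 3.71 CPM, and Mir138-1, known from dendritic spines, with 959 ± 39.5 CPM (SD, n = 2 each). Mir129-2 stood just above Mir218-2, at 165 CPM in the first library and 151 CPM in the second. Their order was not clear in both pools: an exact binomial test, with Benjamini-Hochberg adjustment over 34 tests of neighbours, gave adjusted p = 0.0186 in library 1 and 0.915 in library 2. Mir129-1 followed below Mir218-2 with 91.3 ± 6.66 CPM (SD, n = 2), and the same test gave adjusted p = 8.902e-10 in library 1 and 7.494e-24 in library 2.

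Mir218-1 stood next to Mir212, a gene induced by neuronal activity, which reached 40.9 CPM in the first library and 44.5 CPM in the second. Mir218-1 lay below it in both (exact binomial test, adjusted p = 0.00360 and 0.000802). The neighbours tested for both copies were picked by mean CPM in these same counts. The p-values of neighbours therefore give no independent support for the order. Below Mir218-1 came only the 3 copies of Mir124a, each with 17 or fewer counts in either library. Mir124a is a well-known neuronal miRNA whose copies are likewise known to give the same mature strand.

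**Figure D3:**
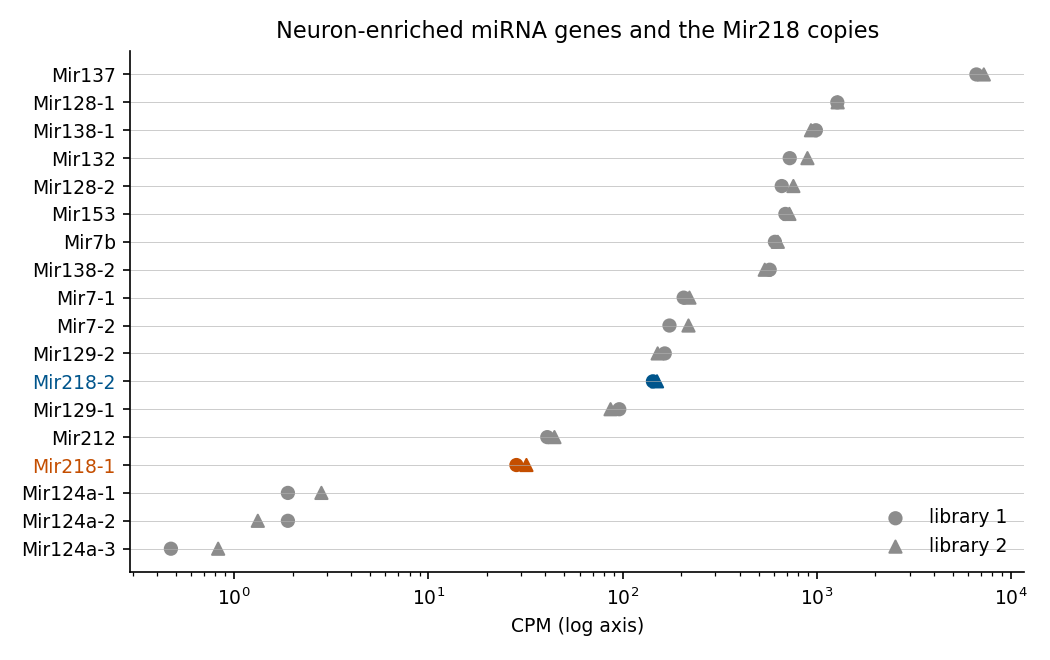
CPM (log axis) of the 16 neuron-enriched miRNA genes and the 2 Mir218 copies, in order of their mean, with a circle for library 1 and a triangle for library 2. Mir218-2 (blue) sits at 143 and 150 CPM between the Mir129 copies, and Mir218-1 (orange) at 28.4 and 32.0 CPM between Mir212 and the Mir124a copies. Reads shared by both Mir218 copies are in neither value.

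The genes with the most similar values in both libraries were found by the distance in log2(CPM + 1) over the 2 libraries. For Mir218-1 these were Mir670 (distance 0.10), Mir216a (0.11) and Mir30c-2 (0.22). For Mir218-2 they were Mir346 (0.10), Mir451a, an erythroid miRNA gene (0.12), and Mir181a-2 (0.18). With 2 libraries of 1 group this measure reflects level more than pattern.

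Neither copy passed the test for a difference between the pools. The ratio of library 1 to library 2 was 0.868 for Mir218-1 (95% exact counting interval 0.685 to 1.10, exact binomial test with Benjamini-Hochberg adjustment over 363 genes, adjusted p = 0.345). For Mir218-2 it was 0.931 (0.838 to 1.03, exact binomial test, adjusted p = 0.278). Both values were slightly lower in library 1. The counting intervals reach to a 1.46-fold higher level in library 2 for Mir218-1 and a 1.19-fold higher level for Mir218-2. They include no variation from pooling, preparation or amplification, so they do not bound the difference between the pools. By the same test 49.9% of the detected genes differed between the libraries, so 0 of 2 members were called against that background. Detection of a small change depends on depth, and Mir218-1 has fewer counts than most of these genes. The test sets the libraries side by side and says nothing of conditions.

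**Figure D4:**
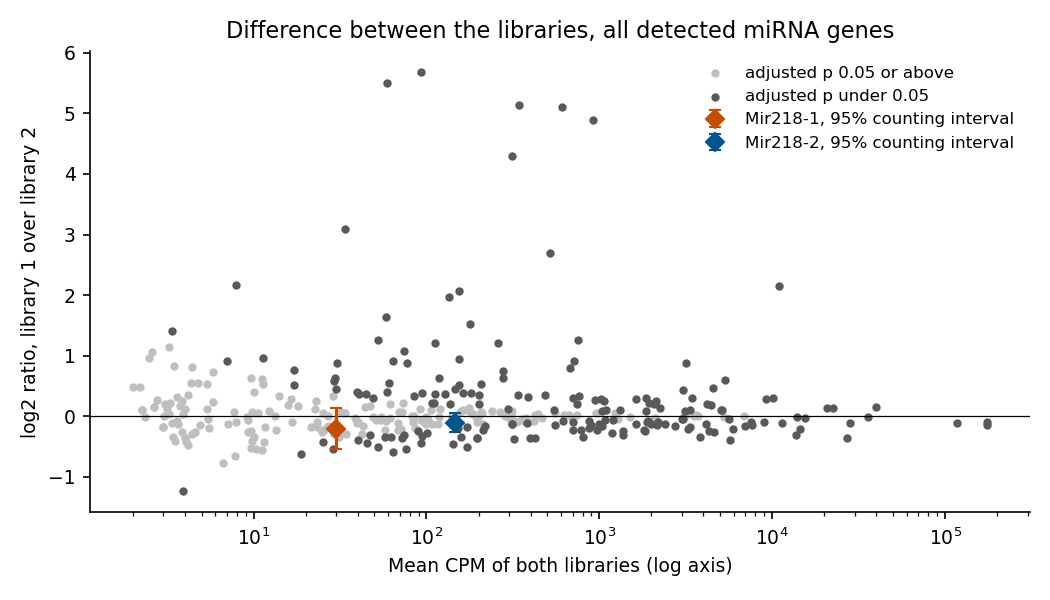
The log2 ratio of library 1 to library 2 (y axis) against mean CPM (x axis, log) for the 363 detected miRNA genes, dark where the adjusted p of the exact binomial test is under 0.05. The Mir218 copies are drawn as diamonds with 95% counting intervals, which reach across 0 for both, at -0.21 for Mir218-1 and -0.10 for Mir218-2.

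Lists of other genes show what moved between the pools beside the Mir218 copies. On the neuron-enriched list without Mir218, 13 of 16 genes were detected. The test called 6 of these with more reads in library 2 and 0 with more in library 1, leaving 7 uncalled, against backgrounds of 24.2% higher in library 2 and 25.6% higher in library 1. The median log2 ratio of the detected genes was -0.10, beside -0.0036 over all detected genes. The Mir218-2 value of -0.10 lay at that median and the Mir218-1 value of -0.21 within the list's range of -0.36 to 0.12.

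The second list held miRNA genes known from work on motor neurons, such as the Mir17 cluster, which protects limb-innervating motor neurons, and the Mir196 genes of the Hox clusters. Of its 15 genes 14 were analysed and 13 detected. The test called 9 as higher in library 1 and 0 as higher in library 2, leaving 4 uncalled. Over all detected genes, 25.6% were called higher in library 1 and 24.2% higher in library 2. The highest by mean CPM were Mir17 with 9253 ± 1401 CPM, Mir196b with 5324 ± 1629 CPM and Mir20a with 3036 ± 690 CPM (SD, n = 2 each). Their log2 ratios of library 1 to library 2 were 0.28, 0.60 and 0.43. The list's median log2 ratio was 0.30, with a range of -0.10 to 2.69 over its detected genes. The lowest, Mir9-3 with -0.10, lay beside Mir218-2. Whether the list and the Mir218 copies differ was not tested.

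Markers of other tissues also differed between the pools. All 6 epithelial genes (the Mir200 family members and Mir205) were higher in library 1, with a summed level of 4525 CPM against 146 CPM in library 2. Of the 5 smooth muscle and mesenchyme genes 4 were detected, all higher in library 1, with sums of 19290 and 4459 CPM. The background of genes called higher in library 1 was 25.6% of all detected genes. The endothelial gene Mir126a reached 22011 and 19666 CPM. The erythroid sums were 178 and 162 CPM, the leukocyte sums 275 and 170 CPM, and the skeletal muscle sums 287 and 363 CPM. Mir206 alone gave 283 and 360 CPM of the skeletal muscle sums. Oligodendrocyte genes (Mir219a-1, Mir219a-2 and Mir338) summed to 2095 and 2328 CPM, and the neuron markers Mir137 and Mir124a to 6619 and 7225 CPM. Mir137 alone gave 6615 and 7220 CPM of the neuron marker sums. The part of these tissues in the Mir218 values was not tested. The tables hold miRNA genes only, so markers of motor neurons themselves were not measured, and that the reads came from motor neurons was not tested.

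Other miRNA genes come as copies with a common strand. By the RefSeq sequences, 50 genes have 1 mature strand identical to that of another gene and another strand that is not, the Mir218 copies among them. The 1057 genes not matched by symbol to a mature RefSeq sequence were not classed. Of the 50 genes 37 were detected, with a median of 157 CPM, and of the 31 genes whose every strand is shared 6 were detected. At least 2 copies were detected in 14 families of the first kind. The ratio of the highest to the lowest detected copy by mean CPM, which its definition keeps above 1, had a median of 2.88 and ran from 1.09 to 93.6. Mir218 stood sixth of these 14 with 4.87. Families without 2 detected copies, such as Mir103 described below, were left out, so the median and this place depend on the filter.

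Among these 14 families, the largest ratios were those of Mir181b with 93.6, Mir196a with 80.8 and Mir181a with 20.6. Ratios between copies were similar in both pools in most families. For Mir218 the log2 ratios of the libraries differed by 0.10, beside a median difference of 0.14 over the 14 families, and 6 families differed by less. As for Mir218, such ratios count only reads that tell the copies apart.

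**Figure D5:**
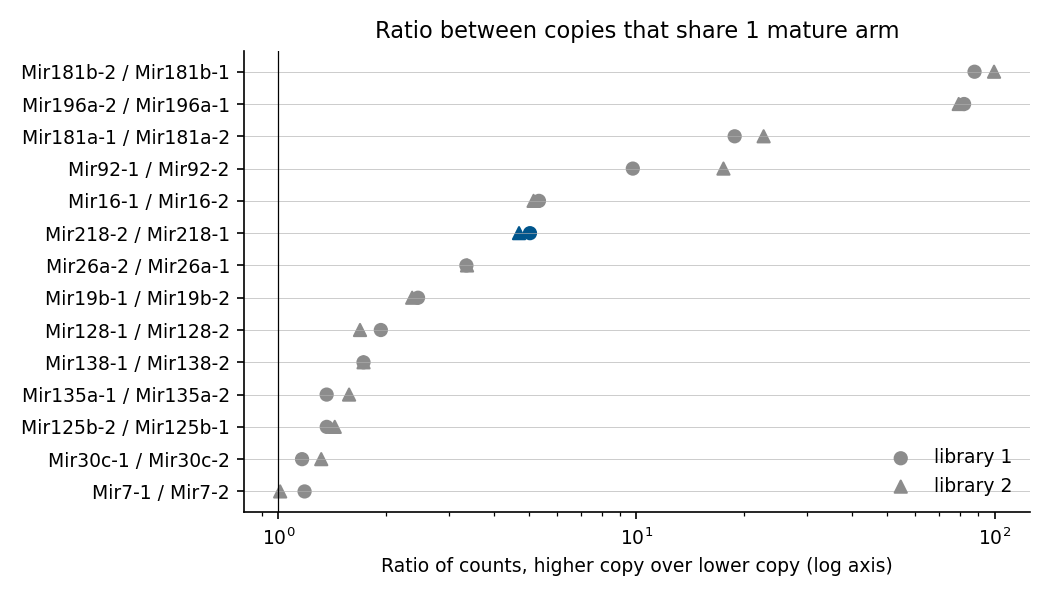
Ratio of counts of the higher to the lower copy (x axis, log) in the 14 families whose copies share 1 mature strand, with a circle for library 1 and a triangle for library 2. Mir218 (blue) lies at 5.04 and 4.70, between Mir16 and Mir26a.

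Copies in related host genes, as in the Slit pair, showed unequal counts too. Mir103-2 in Pank2 had 132 and 226 counts and Mir103-1 in Pank3 had 7 and 15, a factor of 18.9 in library 1 (95% exact interval 8.90 to 47.8) and 15.1 in library 2 (8.94 to 27.4). Mir26a-2 in Ctdsp2 exceeded Mir26a-1 in Ctdspl by 3.35 (2.01 to 5.83) and 3.36 (2.07 to 5.69). Mir128-1 in R3hdm1 exceeded Mir128-2 in Arpp21 by 1.93 (1.85 to 2.02) and 1.69 (1.63 to 1.75). The cardiac genes Mir208b in Myh7 and Mir208a in Myh6 gave 69 against 15 counts in library 1, a factor of 4.60 (2.61 to 8.66), and 103 against 10 in library 2, a factor of 10.3 (5.38 to 22.1). The interval of the Mir218 ratio overlapped that of Mir26a and of Mir208 in both libraries. It lay above that of Mir128 in both and below that of Mir103 in both. Unlike the other pairs, the Mir208 genes have no mature strand identical to that of another gene. Their counts therefore leave no shared strand out, and their ratio is not the same measure as that of Mir218.

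Mir103-1 is also the only other miRNA gene of the tables within 1 Mb of a Mir218 copy. It lies 166 kb downstream of Mir218-2 on the same strand of chromosome 11. At 1.66 CPM in the first library and 2.48 CPM in the second it was far below Mir218-2, and it too shares a mature strand with its other copy.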

How the data were processed

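The authors deposited 1 table per library with unnormalized read counts for each annotated miRNA gene. A README text deposited with each sample names assembly mm10 and GENCODE M4. The aligner, counting tool and trimming are not given in the sources that were used. Counts of the sense strand were used, and the unstranded count equalled the sum of both strands with 0 exceptions. Entries that name no gene (45.7% and 47.7% of 7925935 and 11738914 reads) were left out of library sizes. Identifiers were matched without version to GENCODE M21 (1894 of 1973), and both Mir218 genes also matched with it. RefSeq hairpins were found for 869 genes, including both members.

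CPM used the sense total. Libraries were compared gene by gene with an exact binomial test, two-sided, at the share given by TMM effective sizes (edgeR 4.0.16, R 4.3.3), over genes with at least 10 counts in each, with Benjamini-Hochberg adjustment at 0.05. No model with replicates was possible with 1 group of 2. The test was checked on simulated data whose counts varied by sampling alone. Alternatives were DESeq2 1.42.0 size factors, other library sizes, filters, strands, thinning and leaving out a library. Python 3.11.15, scipy 1.17.1 and matplotlib 3.10.9 were used.

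The members and lists were chosen with earlier results of these data known. The text names the members, the 3 genes nearest to each, the 3 highest genes of the neuron and motor neuron lists, all copies in paralogous hosts, and the 3 families with the largest copy ratio. Neighbours in order or position, and Mir9-3 and Mir375, were named after their values were seen.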

Additional observations from a re-analysis of the deposited data

How the results depend on the processing

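The ratio between the Mir218 copies kept its direction and stayed past the threshold under the 4 alternatives run. Its log2 values were 2.23 to 2.33 when either library was left out and 2.27 with the counts of both added. Counts from both strands could not change it, because neither copy had antisense counts. None of these alternatives changed how reads were placed on a copy. The library ratios of both copies kept their sign and did not pass the test under any of the 7 alternatives run. With all reads as library size, the mean levels were 15.8 CPM for Mir218-1, 76.8 CPM for Mir218-2 and 92.6 CPM for their sum, because that total includes reads in no gene. With either library left out Mir218-1 ranked 253 to 264 and Mir218-2 169 to 184. With counts from both strands Mir218-1 ranked 271. Against only genes without a shared stretch of 20 bases the ranks were 200 and 137, because fewer genes were ranked. The number of genes that differed between the libraries ran from 165 to 188. Reads shared by both copies are in no setting, so the level of the 5p strand is not measured here. No paired analysis was possible because the samples form 1 group.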
